A study of Mus musculus with 9 samples.

Results

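The proteasome is the protease of the cytosol and nucleus that degrades proteins tagged with ubiquitin, and the genes of its constitutive subunits were taken as every row of the count table whose symbol is Psma, Psmb, Psmc or Psmd followed by a number, without the inducible subunits Psmb8, Psmb9 and Psmb10. The rule gave 36 of the 55385 genes in the table. Of these, 34 were measured well enough to be tested, among 15519 genes tested in all. Psma8, the alpha subunit of the testis, had at most 15 counts in a library, and Psmb11, the beta subunit of the thymus, had a single count in all 9 libraries, so neither was tested. All 36 are protein-coding in the GENCODE M21 annotation of GRCm38 (mm10), and they lie on 16 chromosomes.

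The core particle of the proteasome is a barrel of stacked rings. The outer rings hold the alpha subunits, which gate the entry, and the inner rings hold the beta subunits, of which Psmb5, Psmb6 and Psmb7 carry the peptidase sites. The regulatory particle caps the barrel: its ATPases, encoded by the Psmc genes, unfold the substrate and feed it in, and its other subunits, encoded by Psmd genes, bind ubiquitin chains, remove them or hold the lid together. Psmd5, Psmd9 and Psmd10 encode chaperones that help to assemble the ATPase ring and are not part of the finished complex. In cells exposed to interferon, Psmb8, Psmb9 and Psmb10 take the places of Psmb5, Psmb6 and Psmb7 in new core particles, which are then called immunoproteasomes. The transcription factor NRF1, encoded by Nfe2l1, is known for raising the proteasome genes together when degradation falls short. In the kidney, proximal tubule cells take up and break down much filtered protein and are among the cells most damaged when blood flow is cut.

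Polyadenylated RNA was sequenced from tdTomato-positive cells sorted out of the cortex and outer medulla of male mice aged 9 to 12 weeks, in 3 groups of 3 libraries labelled as biological replicates; the sources used here do not say how many mice went into a library. The uninjured cells came from Slc34a1IRES-CreERT2/+:R26RtdT/+ mice given tamoxifen, in which the promoter of a phosphate transporter of the proximal tubule drives the inducible Cre. The 48 h and d14 cells came from Sox9IRES-CreERT2/+:R26RtdT/+ mice with ischemia-reperfusion injury (IRI) of both kidneys, in which the promoter of Sox9, a transcription factor of injured and regenerating tubules, drives it. Mice of the 48 h group had tamoxifen at the injury and those of the d14 group on days 10 and 12, so the label marks cells that switched Sox9 on early or that still expressed it late. All 3 groups carried an IRES-CreERT2 allele and the R26RtdT reporter and had tamoxifen. Cre allele, injury and tamoxifen schedule differed together between the uninjured and the injured groups and cannot be told apart. Between the 48 h and d14 groups, time after injury and tamoxifen schedule differed together and cannot be told apart either. The comparisons ask how the proteasome genes stood in each Sox9 population against uninjured proximal tubule cells, and how the late population stood against the early one.

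Total counts ranged from 31585507 to 51631204 in uninjured libraries, from 8036054 to 23794029 at 48 h and from 19239354 to 30414758 at d14. Levels below are CPM, the counts divided by a library size that was scaled by TMM, which sets the bulk of the genes equal between libraries, and fold changes are log2 values with their standard error (SE) from edgeR. The words called higher and called lower stand for a Benjamini-Hochberg adjusted p under 0.05 over all genes tested. The scaling matters here: the TMM factors were 0.846 to 0.902 in uninjured libraries, 0.848 to 0.912 at 48 h and 1.21 to 1.48 at d14. The 50 most abundant genes took 43.0 to 46.8% of the counts in uninjured libraries, 49.8 to 51.6% at 48 h and 26.3 to 38.3% at d14. Mitochondrially encoded genes took 27.1% ± 2.08 (SD, n = 3), 37.0% ± 3.75 and 21.3% ± 5.36. Markers of other cells differed between the groups as well: the summed level of 10 proximal tubule markers ran from 18851 to 20885 CPM in the uninjured group, from 5866 to 12157 CPM in the 48 h group and from 3250 to 4452 CPM in the d14 group. The sum of 4 thick ascending limb markers was 289 to 358, 745 to 994 and 2646 to 4792 CPM, that of 4 distal convoluted tubule markers was 64.3 to 111, 202 to 385 and 1913 to 3566 CPM, and that of 6 measured neutrophil markers was 2.63 to 7.58, 115 to 337 and 3.27 to 5.78 CPM. These sums hide single markers: Cldn10 of the thick ascending limb was lower in all 3 comparisons by edgeR (adjusted p under 0.05), the other 3 higher. Of the 4 distal convoluted tubule markers, 2 had positive and 2 negative fold changes at 48 h. The part of these differences in the proteasome values was not tested. Fewer cells of a type and less RNA of a gene per cell cannot be told apart in these bulk samples.

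The constitutive proteasome genes were expressed in all 9 libraries. The 36 genes together, with the untested Psma8 and Psmb11, took 0.244%, 0.230% and 0.214% of all counts in the 3 uninjured libraries, 0.209%, 0.246% and 0.235% in those of 48 h and 0.307%, 0.239% and 0.259% in those of d14. On this plain scale the d14 libraries reached the highest share. After TMM scaling the order turned: the summed level of the 34 tested genes was 2735, 2553 and 2534 CPM in uninjured libraries, 2469, 2844 and 2577 CPM at 48 h and 2077, 1956 and 2147 CPM at d14. The uninjured and 48 h libraries overlapped and every d14 library lay below them. The plain and the TMM scale differ by the typical gene. With library size alone, the median fold change of all genes tested was 0.63 (log2) at d14 against uninjured cells and 0.63 against 48 h. The proteasome genes gained less than that. All d14 directions below are relative to the typical gene, and the value with library size alone stands beside them.

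Levels per kilobase divide the level of a gene by the length of its longest principal coding transcript, so the order of genes rests on that choice. Psma3 was given 2846 bases and Psmb6 798. On this scale the levels ran over a modest range among the 31 subunits of the assembled complex. In uninjured cells the lowest level was 23.9 CPM per kb for Psma3 and the highest 140.5 CPM per kb for Psmb6, a ratio of 5.88, with a median of 53.7. At 48 h the range was 23.0 (Psmd14) to 155 (Psmb6) and at d14 it was 18.9 (Psma3) to 98.7 (Psmb6) CPM per kb. Across these 31 genes the rank order of the levels at 48 h and at d14 correlated with that in uninjured cells with Spearman's rho of 0.96 each, a description over genes that share transcript lengths and libraries. The 3 assembly chaperones had levels of 15.8 (Psmd10), 28.4 (Psmd9) and 33.4 (Psmd5) CPM in uninjured cells, on a scale without correction for length.

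**Figure D1:**
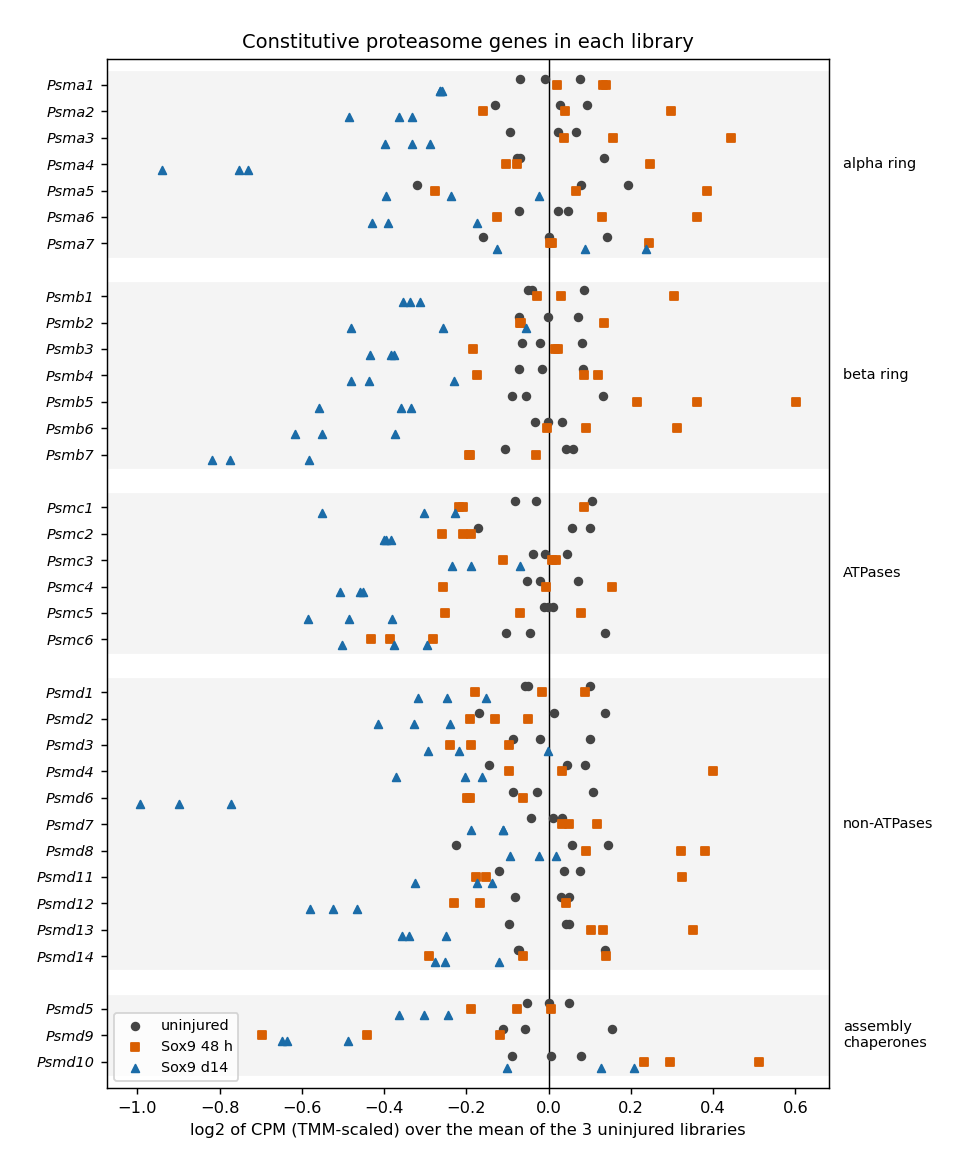
Level of each of the 34 measured constitutive proteasome genes in each library, as log2 of TMM-scaled CPM over the mean of the 3 uninjured libraries, by structural class; each point is 1 library. Most 48 h points (squares) scatter around 0 with the uninjured ones (circles), while d14 points (triangles) lie to the left for 32 of 34 genes by the fitted fold change; with library size alone, 30 of 34 d14 fold changes were positive.

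At 48 h few constitutive genes differed from uninjured cells by the test, and their fold changes centred on that of the typical gene. Of the 34 genes, 1 was called higher (Psmb5) and 1 lower (Psmc6), where 17.4% of all tested genes were called higher and 11.7% lower. The 48 h libraries lay all above the uninjured ones for 4 members and all below for 4, against 21.5% and 20.8% of all tested genes. The members' median log2 fold change was 0.01 and their range -0.41 to 0.40, against a median of 0.02 for all genes tested. With library size without mitochondrial genes, 6 of 34 were called higher and 0 lower, where 23.0% of all tested genes were called higher and 5.98% lower, and the medians were 0.21 for the members and 0.22 for all genes. By class, all 7 alpha genes had positive fold changes (0.03 to 0.22) and all 6 ATPase genes negative ones (-0.36 to -0.02), but 0 of the 7 alpha genes and 1 of the 6 ATPase genes passed the test with edgeR. Of all 15519 genes tested, 7941 had positive and 7559 negative fold changes. With library size without mitochondrial genes, Psmc1 (0.10), Psmc3 (0.18), Psmc4 (0.18) and Psmc5 (0.13) turned positive, while Psmc2 (-0.01) and Psmc6 (-0.16) stayed negative. The summed alpha level was 520, 468 and 468 CPM in uninjured libraries. At 48 h it was 461, 594 and 502 CPM, highest in the second library, with 8036054 counts. After TMM scaling the median was 0.02 for the 7 beta genes, -0.03 for the 11 non-ATPase genes of the regulatory particle and -0.08 for the 3 chaperones. Among the 34 members, 4 had an unadjusted p under 0.05 in edgeR, against 6231 of all 15519 genes tested.

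Psmb5 encodes the subunit with the chymotrypsin-like site, the main target of proteasome inhibitors, and lies at chr14:54614119-54618022 on the minus strand. Its level was 106, 93.0 and 90.8 CPM in the 3 uninjured libraries, 112, 146 and 124 CPM at 48 h and 76.5, 65.6 and 75.3 CPM at d14. The 3 groups did not overlap, with 48 h highest and d14 lowest after TMM scaling. The fold change at 48 h was 0.40 ± 0.13 (SE, log2) with an adjusted p of 0.0361 in edgeR's quasi-likelihood test. This call was lost in 6 of the 9 fits that each left out 1 library, in which the fold change ranged from 0.29 to 0.48; those 6 left out any uninjured library, replicate 2 or 3 at 48 h, or replicate 3 at d14. It was also lost in 5 other settings given in the closing section.

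Psmc6 encodes an ATPase and lies at chr14:45329788-45349705 on the plus strand. Its level was 73.8, 62.4 and 65.0 CPM in uninjured libraries, 51.3, 49.7 and 55.2 CPM at 48 h and 54.7, 47.3 and 51.6 CPM at d14. Both injured groups lay below the uninjured one and overlapped each other. The fold change at 48 h was -0.36 ± 0.11 (adjusted p = 0.0281, edgeR); leaving out 1 library kept it between -0.43 and -0.29, and the call was lost without uninjured replicate 1 or 3 or without 48 h replicate 1 or 2. It was also lost with only the 2 groups compared (adjusted p = 0.052), with upper quartile scaling (0.0511), with library size alone (0.0935) and with library size without mitochondrial genes, where the fold change was -0.16 (adjusted p = 0.342).

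In the other classes the 48 h members with the smallest p did not pass the test. Psma3, an alpha subunit, stood at 69.1, 63.7 and 71.2 CPM in uninjured libraries and 69.7, 92.4 and 75.8 CPM at 48 h. Psmd8, a lid subunit, stood at 99.4, 105.7 and 81.8 CPM and at 102, 119.6 and 124 CPM. Psmd9, an ATPase chaperone, stood at 31.6, 26.3 and 27.3 CPM and at 20.9, 26.2 and 17.5 CPM, with a fold change of -0.41 ± 0.16 and an adjusted p of 0.0734 (edgeR). Psmd9 passed the test when the second 48 h library was left out, with a fold change of -0.57. That library, the shallowest with 8036054 counts, was the highest of its group for 24 of the 34 members and the lowest for 4. The first uninjured library was likewise the highest of its group for 24 members, and the second d14 library the lowest of its group for 24.

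At d14 the constitutive genes stood lower against the typical gene, in every structural class of the complex. Of the 34 genes, 21 were called lower than in uninjured cells and 0 higher after TMM scaling, where 20.7% of all tested genes were called lower and 25.1% higher; with library size alone, 0 of the members were called lower and 6 higher, where 9.13% of all tested genes were called lower and 47.1% higher. After TMM scaling, the 3 d14 libraries lay below the 3 uninjured ones without overlap for 28 of 34 members and above them for 0, against 28.9% and 34.4% of all tested genes. By class, the median was -0.33 for the alpha ring, -0.40 for the beta ring, -0.39 for the ATPases, -0.24 for the non-ATPases and -0.30 for the chaperones. Over all members the median log2 fold change was -0.33 (0.795-fold of the uninjured level) and that of all genes 0.06, a distance of -0.39. With library size alone the 2 medians were 0.24 and 0.63, and with library size without mitochondrial genes 0.12 and 0.51, a distance of -0.39 in both. A scaling moves the members and all other genes by nearly the same amount, at most 0.02 apart, so this distance is fixed by construction and the 5 scalings are no separate check of it. The call against 0 depends on the scaling. After TMM scaling, 32 of 34 members lay below the median of all genes.

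**Figure D2:**
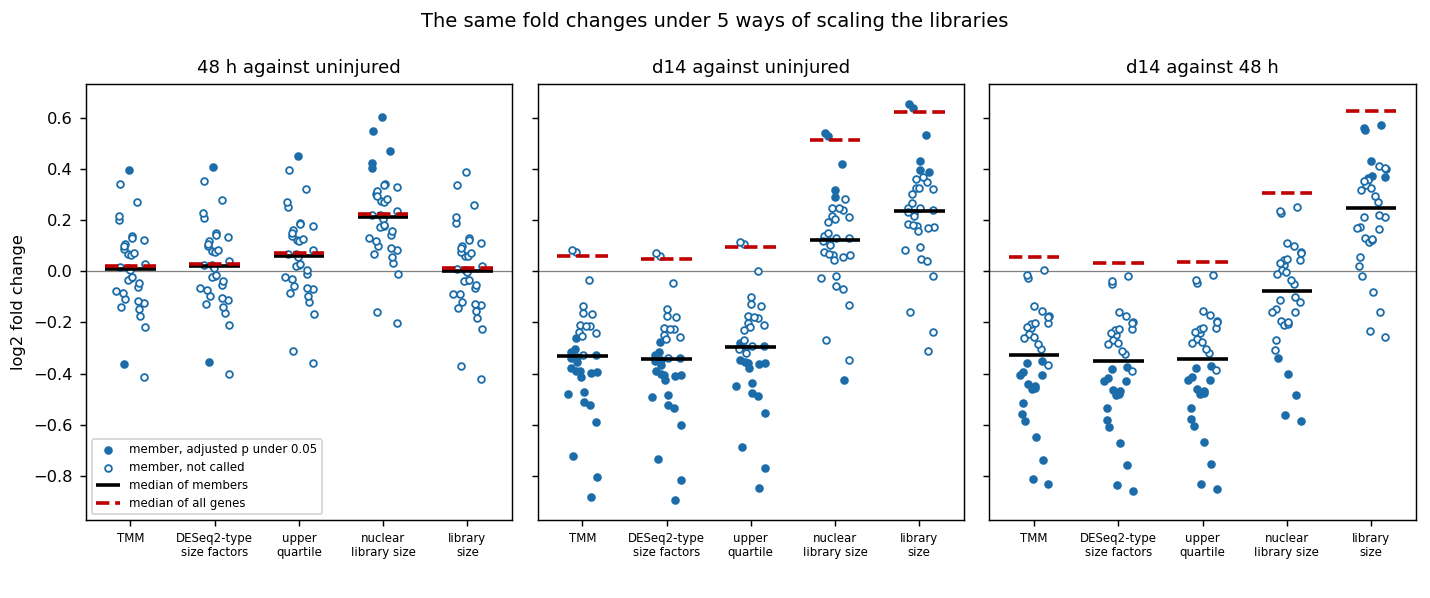
log2 fold change of the 34 members (circles, filled where adjusted p is under 0.05) in the 3 comparisons under 5 ways of scaling the libraries, with the median of the members (solid bar) and of all genes tested (dashed bar). Each scaling moves both bars alike, so in both d14 comparisons the members' bar lies 0.38 to 0.39 below that of all genes in every column by construction, while its position against 0 turns from negative with TMM (-0.33) to positive with library size alone (0.24 and 0.25).

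In the beta ring 6 of 7 genes, all but Psmb2, were called lower at d14 after TMM scaling, and none of the 7 with library size alone. The count was 3 without the first uninjured or the second d14 library. The 3 peptidase subunits were among the 6. Psmb7, with the trypsin-like site, lies at chr2:38588036-38644087 on the minus strand and stood at 85.3, 77.0 and 86.3 CPM in uninjured libraries, 72.7, 81.2 and 72.5 CPM at 48 h and 47.0, 48.4 and 55.3 CPM at d14. All d14 libraries lay below all others, and the fold change against uninjured was -0.72 ± 0.11 (adjusted p = 2.51e-04, edgeR). With library size alone it was -0.16, so this member kept its sign.

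Psmb6, with the caspase-like site, lies at chr11:70525367-70527858 on the plus strand. It stood at 112, 115 and 109.7 CPM in uninjured libraries, 112, 139 and 119 CPM at 48 h and 73.1, 76.6 and 86.5 CPM at d14. The d14 libraries lay apart from the other 6, which overlapped. Its fold change at d14 was -0.51 ± 0.12 (adjusted p = 0.00371, edgeR) after TMM scaling and 0.05 with library size alone. For Psmb5 the d14 fold change was -0.41 ± 0.13 (adjusted p = 0.02) after TMM scaling and 0.16 with library size alone, and the TMM call was lost without the first uninjured or the second d14 library.

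Alpha genes were called lower at d14 for 4 of 7 (Psma1, Psma2, Psma3 and Psma4) after TMM scaling and for none of 7 with library size alone. This count rested on single libraries: it was 1, Psma4 alone, without the first uninjured library or without any 1 of the d14 libraries, and 2 without the third uninjured library. Psma4 lies at chr9:54950790-54958030 on the plus strand. It stood at 143, 123 and 124 CPM in uninjured libraries, 121, 154 and 123 CPM at 48 h and 77.2, 67.8 and 78.3 CPM at d14. The d14 values lay far below the rest, and the fold change of -0.80 ± 0.13 (adjusted p = 3.52e-04, edgeR) kept its sign with library size alone, at -0.24. Psma7, in the same ring, did not follow: it stood at 69.7, 63.3 and 56.7 CPM, then 63.6, 74.9 and 63.3 CPM, then 67.2, 58.0 and 74.5 CPM, and the 3 groups overlapped. Its d14 fold change was 0.07 ± 0.13 (adjusted p = 0.678) after TMM scaling, and it was among the 6 called higher with library size alone.

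ATPase genes were called lower at d14 for 5 of 6, all but Psmc3, after TMM scaling and for none of 6 with library size alone. The count was 3 without the first uninjured or the second d14 library. Psmc5 had the smallest p: its 3 uninjured libraries agreed closely, at 81.7, 81.1 and 80.5 CPM, and it stood at 77.2, 85.7 and 68.1 CPM at 48 h and 57.9, 54.0 and 62.3 CPM at d14. The d14 libraries lay below all 6 others. The fold change was -0.48 ± 0.11 (adjusted p = 0.00427, edgeR) after TMM scaling and 0.08 with library size alone.

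Of the 11 non-ATPase genes of the regulatory particle, 4 (Psmd2, Psmd6, Psmd12 and Psmd13) were called lower at d14 after TMM scaling and none of 11 with library size alone. The count was 2 without the first uninjured library or without any 1 of the d14 libraries. Psmd6 had the lowest fold change of all members. Psmd6 encodes a lid subunit and lies at chr14:14112174-14120984 on the minus strand. It stood at 68.2, 62.1 and 59.6 CPM in uninjured libraries, 55.1, 55.5 and 60.7 CPM at 48 h and 37.1, 31.8 and 34.0 CPM at d14. The d14 libraries lay far below the other 6, and the fold change was -0.88 ± 0.11 (adjusted p = 4.89e-05, edgeR) after TMM scaling and -0.31 with library size alone. Psmd12, another lid subunit, fell by 0.52 on the log2 scale after TMM scaling (adjusted p = 0.00195) and had 0.04 with library size alone. The 11 fold changes ran from -0.88 to -0.03 after TMM scaling, the latter for Psmd8. Psmd4 (-0.24 ± 0.14), the stationary ubiquitin receptor, and Psmd14 (-0.21 ± 0.13), the deubiquitinase of the lid, did not pass the test.

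Among the chaperones, Psmd9 and Psmd5 were called lower at d14 after TMM scaling and Psmd10 was not; with library size alone, neither of the first was called and Psmd10 was called higher. The call of Psmd5 was lost without any 1 of the uninjured or d14 libraries. Psmd9 stood at 20.2, 18.1 and 18.3 CPM at d14, below all 3 uninjured libraries, with a fold change of -0.59 ± 0.16 (adjusted p = 0.00936, edgeR) and -0.02 with library size alone. Psmd10, which encodes gankyrin, stood at 16.7, 14.9 and 15.9 CPM in uninjured libraries, 19.4, 22.6 and 18.6 CPM at 48 h and 18.3, 14.8 and 17.3 CPM at d14. The uninjured and d14 libraries of Psmd10 overlapped, and its fold change of 0.08 ± 0.14 was the highest of the members in this comparison after TMM scaling.

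Counting all classes, 4 of the 21 members called lower (Psma4, Psmb7, Psmd6 and Psmd9) kept a negative fold change with library size alone and 17 turned positive. The count of 21 moved between 10 and 22 when 1 library was left out: it was 10 without the first uninjured or the second d14 library and 13 without the first or the third d14 library. Called in all 9 of these fits were Psma4, Psmb3, Psmb6, Psmb7, Psmc2, Psmc4, Psmc5, Psmd6, Psmd9 and Psmd12, which makes 10 of 21.

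**Figure D3:**
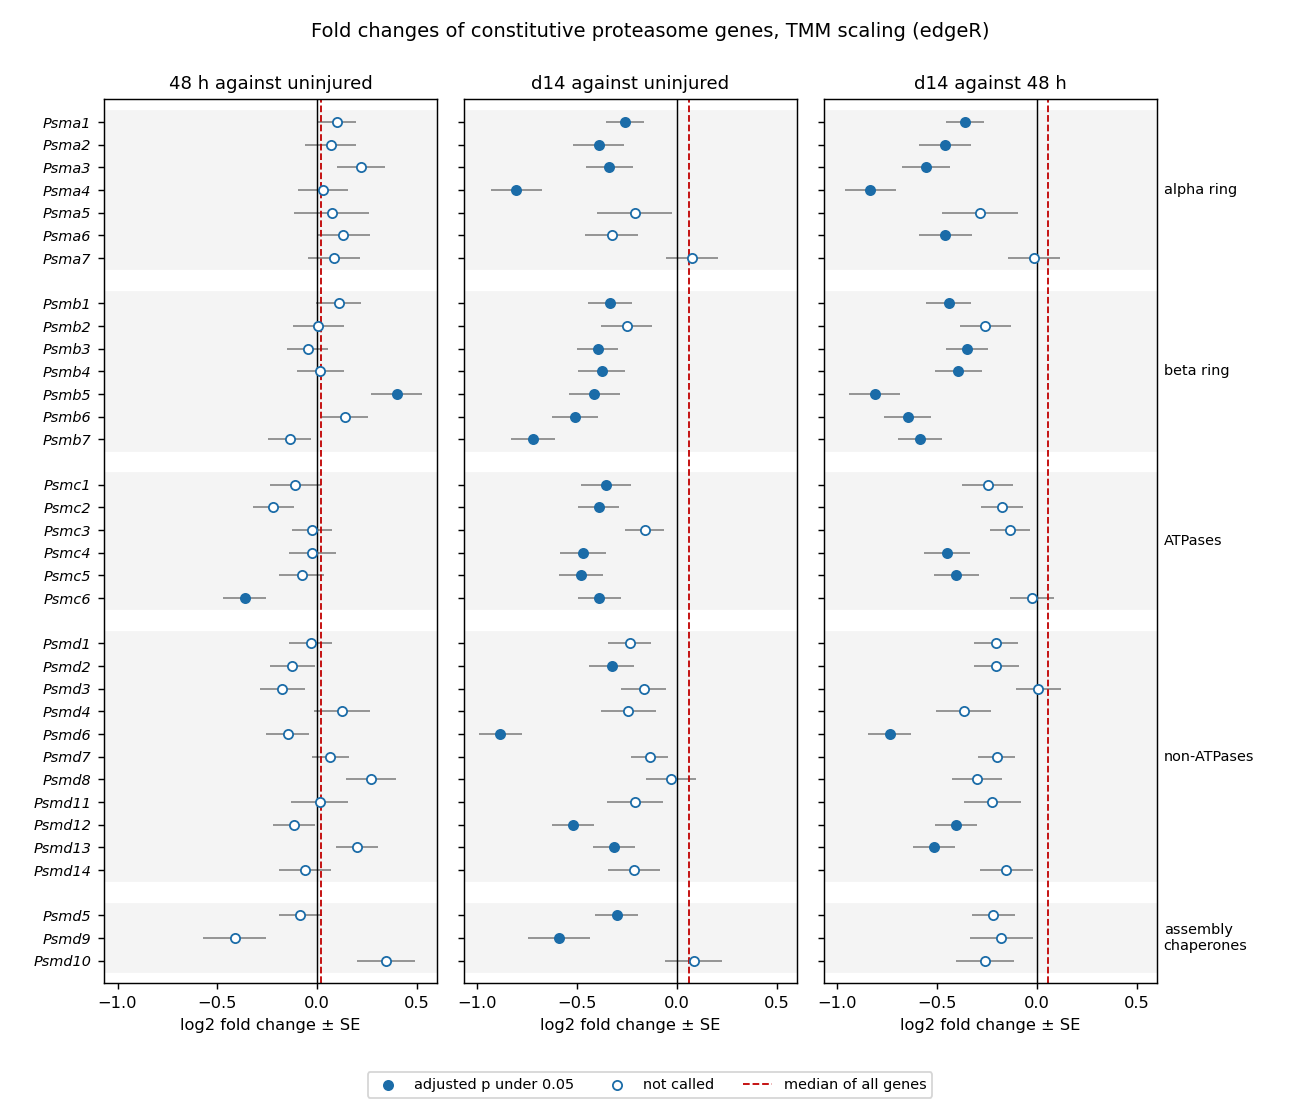
Fitted log2 fold change ± SE of each member after TMM scaling, by structural class, in the 3 comparisons; filled points have an adjusted p under 0.05 and the dashed line is the median of all genes tested. The 48 h panel centres on 0 with 2 called genes, and in the d14 panels 32 and 34 of 34 genes lie left of the dashed line, with 21 and 16 called lower, numbers that are 0 with library size alone.

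Against the 48 h cells the d14 libraries gave a like picture, and since both d14 comparisons use the same d14 libraries they are not independent. Of the 34 members, 16 were called lower and 0 higher after TMM scaling, where 16.3% of all tested genes were called lower and 16.8% higher; with library size alone, 0 of the members were called lower and 8 higher, where 6.02% of all tested genes were called lower and 43.9% higher. After TMM scaling the d14 libraries lay below the 48 h ones without overlap for 24 members and above them for 0, against 20.6% and 26.7% of all tested genes. The members' median was -0.33 and that of all genes 0.05, and all 34 members lay below the median of all genes. The alpha ring had 5 of 7 called lower, the beta ring 6 of 7, the ATPases 2 of 6 (Psmc4 and Psmc5), the non-ATPases 3 of 11 (Psmd6, Psmd12 and Psmd13) and the chaperones 0 of 3, all after TMM scaling; with library size alone, no class had a member called lower. The count of 16 ranged from 10 to 17 when 1 library was left out and was 10 without the second d14 library. By class the range was 2 to 5 for the alpha ring, 4 to 6 for the beta ring, 0 to 2 for the ATPases and 2 to 4 for the non-ATPases; the lower counts of the alpha ring came without the second 48 h or the second or the third d14 library, and those of the ATPases without the first or second d14 library. Of the members, 15 were called lower in both d14 comparisons, 6 against uninjured cells alone, 1 (Psma6) against 48 h cells alone and 12 in neither.

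Of the 5 largest fold changes of this comparison, 4 belonged to core particle genes. Psma4 had a fold change of -0.83 ± 0.13 (adjusted p = 7.42e-04, edgeR), Psmb5 one of -0.81 ± 0.13 (adjusted p = 8.7e-04), Psmb6 one of -0.65 ± 0.12 (adjusted p = 0.00185) and Psmb7 one of -0.58 ± 0.11 (adjusted p = 0.00242). With Psmd6 (-0.74 ± 0.11, adjusted p = 5.65e-04), these were the 5 called members whose sign stayed negative with library size alone, where they ran from -0.26 to -0.02; the other 11 turned positive. Psmc4, the ATPase gene with the smallest p, stood at 82.1, 75.5 and 77.1 CPM in uninjured libraries, 87.1, 65.5 and 77.9 CPM at 48 h and 56.9, 55.1 and 57.2 CPM at d14. Psmd3, a lid subunit, had the highest fold change, 0.01 ± 0.11: it stood at 153, 163 and 148 CPM at 48 h and at 142, 150.1 and 174 CPM at d14, and the groups overlapped. Psmd5 stood at 29.3, 31.6 and 33.5 CPM at 48 h and 28.2, 27.0 and 25.9 CPM at d14, with an adjusted p of 0.143 that missed the threshold.

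The 3 inducible subunits were called higher at d14 against uninjured cells. Psmb10, which replaces Psmb7, stood at 3.32, 3.83 and 2.87 CPM in uninjured libraries, 9.59, 9.92 and 20.3 CPM at 48 h and 13.2, 13.9 and 12.8 CPM at d14, with no overlap between uninjured and injured libraries. It was called higher at 48 h (2.01 ± 0.29, adjusted p = 5.54e-04) and at d14 (1.99 ± 0.29, adjusted p = 1.93e-04) by edgeR, also with library size alone. Psmb8, which replaces Psmb5, stood at 1.52, 4.11 and 2.41 CPM, then 9.93, 1.15 and 11.6 CPM, then 10.8, 15.7 and 15.4 CPM. The second 48 h library, with 8 counts of Psmb8, lay below every uninjured one, and Psmb8 passed the test at d14 (2.40 ± 0.63, adjusted p = 0.0114) but not at 48 h (1.56 ± 0.63, adjusted p = 0.091). Psmb9, which replaces Psmb6, stood at 1.11, 0.878 and 1.42 CPM, then 2.86, 1.44 and 4.24 CPM, then 2.68, 3.76 and 4.30 CPM. It passed at d14 (1.65 ± 0.48, adjusted p = 0.0152) but not at 48 h (adjusted p = 0.0565), and the d14 call was lost without the first or second uninjured or the third d14 library. Both Psmb8 and Psmb9 passed at 48 h when the second 48 h library was left out. Markers of immune cells differed between the groups as well, and not alike. The sum of 6 measured neutrophil markers was 2.63 to 7.58 CPM in the uninjured group, 115 to 337 CPM at 48 h and 3.27 to 5.78 CPM at d14. The 1 measured lymphocyte marker was not called in any comparison. The summed level of the 3 inducible subunits was 5.95, 8.81 and 6.70 CPM in the uninjured group, 22.4, 12.5 and 36.1 CPM in the 48 h group and 26.8, 33.3 and 32.5 CPM in the d14 group. That of 9 macrophage markers was 33.5, 37.5 and 29.9 CPM, then 166, 88.7 and 329 CPM, then 96.0, 123 and 50.8 CPM, with no marker at 0 in a group. Against uninjured cells, 4 of the 9 were called higher at 48 h and 5 at d14, where 17.4% and 25.1% of all tested genes were. At 48 h the second library was lowest and the third highest in both sums, and at d14 the third library was lowest for the macrophage markers but not for the inducible subunits. The part of these cells in the result was not tested.

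A ratio of an inducible to its constitutive partner within a library does not depend on the scaling. Per 100 Psmb5 transcripts, on counts per kilobase, Psmb8 stood at 0.793, 2.44 and 1.47 in the uninjured group, 4.90, 0.434 and 5.18 in the 48 h group and 7.83, 13.2 and 11.3 in the d14 group. Per 100 Psmb6, Psmb9 stood at 0.583, 0.451 and 0.765, then 1.51, 0.609 and 2.10, then 2.16, 2.90 and 2.93. Per 100 Psmb7, Psmb10 stood at 3.45, 4.39 and 2.94, then 11.7, 10.8 and 24.8, then 24.9, 25.3 and 20.4. In each pair all d14 ratios exceeded all uninjured ones, and with means of 10.8, 2.66 and 23.6 at d14 the constitutive transcript remained the more abundant one. These ratios were not tested. Genes of all 3 pairs share exonic bases with a gene on the other strand. Psmb8 shares 498 with Gm20496 and Psmb7 shares 405 with Nek6. Psmb9 shares 212 with Tap1, a gene at means of 5.79, 8.95 and 19.9 CPM in the 3 groups. Whether the counting used strand is not stated in the sources used here.

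**Figure D4:**
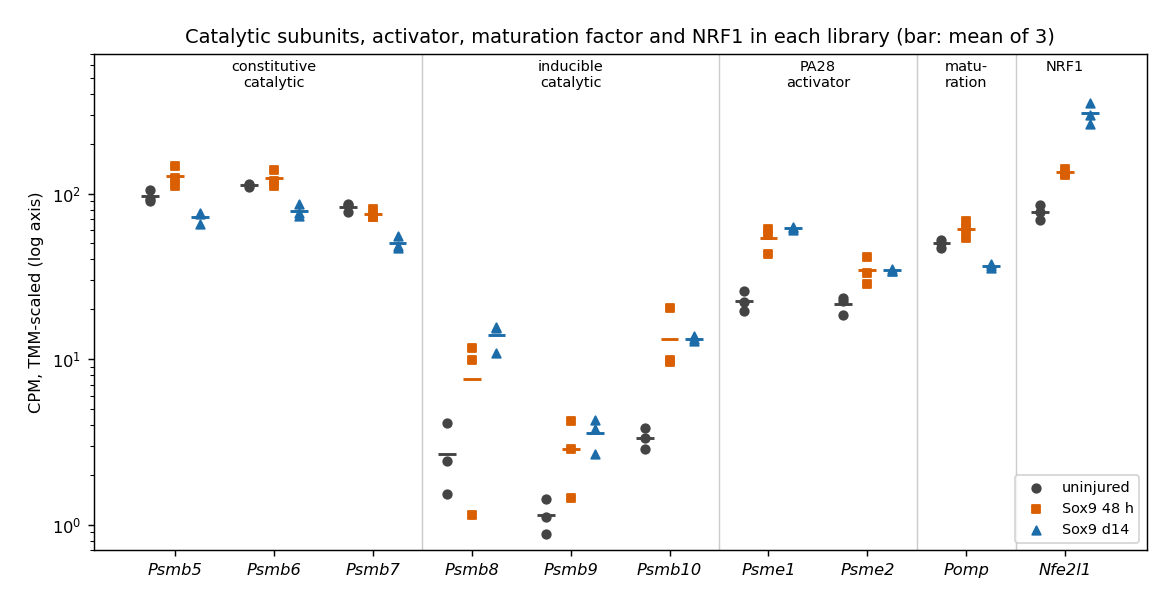
TMM-scaled CPM (log axis) of the constitutive and inducible peptidase subunits, the PA28 activator genes, Pomp and Nfe2l1 in each library; points are libraries and bars are means of 3. Psmb5, Psmb6, Psmb7 and Pomp are lowest at d14 (with library size alone, Psmb7 alone of these is below its uninjured level), whereas Psmb10, Psme1, Psme2 and Nfe2l1 exceed the uninjured libraries in all 6 injured ones.

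Other caps of the core particle went their own ways. Psme1 and Psme2 encode the PA28 activator, an interferon-inducible cap that opens the core without ATP. Psme1 had mean levels of 22.5, 53.7 and 61.7 CPM in the uninjured, 48 h and d14 groups, and was called higher at both times (1.25 ± 0.15, adjusted p = 1.37e-04, and 1.46 ± 0.15, adjusted p = 1.36e-05, edgeR). Psme2 stood at 21.5, 34.4 and 34.4 CPM and was called higher at both times (0.68 ± 0.15 each, adjusted p = 0.00621 and 0.00299). Psme4, which encodes the PA200 cap, stood at 159.6, 145 and 104 CPM and was called lower at d14 against uninjured cells (-0.62 ± 0.10, adjusted p = 4.49e-04); it kept a negative sign there with library size alone and turned to 0.09 against 48 h. Of the 5 activator and inhibitor genes, 2 were called higher at 48 h, where 17.4% of all tested genes were. At d14 2 were called higher and 1 lower after TMM scaling, against 25.1% and 20.7% of all tested genes. With library size alone 3 were higher and 0 lower at d14, against 47.1% and 9.13% of all tested genes.

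Of the 5 measured assembly factors of the core particle, 0 were called by edgeR at 48 h, with a median fold change of 0.29. The shares of all tested genes were 17.4% higher and 11.7% lower. At d14 2 were called lower, with a median of -0.44 after TMM scaling, where 20.7% of all tested genes were called lower. With library size alone 0 were called at d14, against 47.1% of all tested genes higher and 9.13% lower. Pomp, the maturation factor that is degraded as each new core is completed, stood at 50.2, 52.7 and 47.1 CPM in uninjured libraries, 61.04, 53.6 and 68.5 CPM at 48 h and 36.6, 35.6 and 37.4 CPM at d14. The 3 groups did not overlap. Its fold change was -0.45 ± 0.11 against uninjured cells (adjusted p = 0.00652) and -0.74 ± 0.11 against 48 h (adjusted p = 7.16e-04) after TMM scaling, and 0.11 against uninjured cells with library size alone. Psmg1, which helps to build the alpha ring, was called lower at d14 as well (-0.85 ± 0.17, adjusted p = 0.00152), with a negative sign under both scalings.

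Nfe2l1 showed the largest change among the 11 measured genes of the pathway that makes NRF1 active. It lies at chr11:96817414-96829968 on the minus strand and stood at 77.3, 69.6 and 85.2 CPM in uninjured libraries, 129.8, 142 and 131 CPM at 48 h and 264, 299.9 and 354 CPM at d14. The 3 groups did not overlap, and every step was called higher: 0.79 ± 0.13 at 48 h (adjusted p = 0.00119), 1.98 ± 0.13 at d14 (adjusted p = 7.15e-07) and 1.19 ± 0.13 from 48 h to d14 (adjusted p = 1.09e-04, edgeR), also with library size alone. The NRF1 protein is held at the endoplasmic reticulum and becomes active only after the glycanase NGLY1 and the protease DDI2 have processed it, so its transcript alone does not give its activity. Ngly1 was called lower at 48 h (-0.64, adjusted p = 0.00182) and at d14 (-1.14, adjusted p = 1.13e-05), and Ddi2 at d14 (-0.64, adjusted p = 0.00115); against uninjured cells both kept a negative sign with library size alone. Of the 11 measured genes of this pathway, 1 was called higher and 3 lower at 48 h, where 17.4% and 11.7% of all tested genes were. At d14 1 was higher and 3 lower after TMM scaling, against 25.1% and 20.7% of all tested genes. With library size alone 8 were higher and 1 lower at d14, where the shares of all tested genes also moved, to 47.1% and 9.13%.

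NRF1 binds antioxidant response elements (ARE), and the promoters of the members were searched for a short form of that motif, TGACNNNGC on either strand, in windows of 250 bases before to 50 bases after the transcription start from RefSeq (GRCm38.p6). Windows were matched for 28 of the 34 tested members. Psmb1, Psmb2, Psmb7, Psmc3, Psmd3 and Psmd7 had none and were not searched. The motif occurred in 5 of these 28 genes (17.9%), namely Psmb5, Psmb6, Psmc6, Psmd9 and Psmd12, and in 14.8% of all protein-coding genes with a window, so the share among members was near that of all genes. The CCAAT box occurred in 11 of 28 (39.3%) against 42.3%, and TGACGTCA in 0 of 28 against 2.54%. A match describes letters only. Shown are the matches that end before the start and have 10 bases of the window before them, which leaves out that of Psmd12. Of these, 2 belong to peptidase subunits and 1 each to the ATPase and the chaperone described above. The motif is in capitals, within up to 10 bases on each side, and each line reads 5′ to 3′ along the strand of the gene. Positions are those of the whole printed stretch with its flanks, and distances are from the first base of the motif to the start. The Psmb5 stretch is at chr14:54618024-54618052 (minus strand, motif 47 bases before the start) and that of Psmb6 at chr11:70525338-70525356 (plus strand, 9 bases before). That of Psmc6 is at chr14:45329587-45329615 (plus strand, 227 bases before, motif on the other strand) and that of Psmd9 at chr5:123228149-123228177 (plus strand, 31 bases before).
Psmb5: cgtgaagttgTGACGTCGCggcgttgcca
Psmb6: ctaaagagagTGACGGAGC
Psmc6: ccagccagtaGCTAAGTCAggcattgctc
Psmd9: atctagccggTGACCCCGCccacttccaa
All 4 genes were called lower at d14 after TMM scaling, as were members without a match such as Psma4 and Psmd6, and 3 of the 4 turned positive with library size alone.

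The proteins that work around the proteasome were mixed. Of 14 measured proteasome-associated genes, 0 were called at 48 h by edgeR; at d14 2 were called higher (Zfand5 and Ubqln4) and 2 lower, with a median fold change of -0.07 after TMM scaling, against 8 higher and 0 lower with library size alone. The background for the lists of this paragraph was 17.4% of all genes called higher and 11.7% lower at 48 h. At d14 against uninjured cells it was 25.1% higher and 20.7% lower after TMM scaling, and 47.1% and 9.13% with library size alone. Leaving out 1 library gave 0 to 2 higher and 1 to 4 lower; the call of Ubqln4 was lost without any uninjured library or without the first or the third d14 library, and that of Zfand5 without the second uninjured library. Adrm1, a ubiquitin receptor of the regulatory particle whose symbol falls outside the rule, was among the lower ones (-0.57 ± 0.10, adjusted p = 7.94e-04); with library size alone Adrm1 turned positive against 48 h. Among 5 genes for ubiquitin and its activating enzymes, 1 was called higher at 48 h and 1 (Ubb) lower at d14 after TMM scaling; with library size alone Ubb had 0.16 and was not called, and the TMM call was lost without any uninjured library or without the first or second d14 library. The 9 subunits of the COP9 signalosome, a complex built like the lid, had 4 called lower at d14 and a median of -0.32 after TMM scaling, beside -0.33 for the proteasome members; with library size alone 2 were called higher and 0 lower, and leaving out 1 library gave 1 to 5 lower after TMM scaling. The 8 CCT chaperonin genes, another large cytosolic complex, had 3 called lower and a median of -0.09 after TMM scaling, and 5 called higher and 0 lower with library size alone; leaving out 1 library gave 1 to 3 lower after TMM scaling.

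Some members share exonic bases with a gene on the opposite strand, and the pairs given with levels were chosen after the values were seen. Psmd13 shares 342 bases with Sirt3, which had mean levels of 64.5, 36.5 and 20.3 CPM in the 3 groups, and Psmb7 shares 405 bases with Nek6, at means of 10.9, 33.9 and 17.4 CPM. Psma4 shares 114 bases with AY074887, at means of 0.938, 0.320 and 0.0888 CPM. Bases are also shared by Psmd9 (1849, with Gm26745), Psmd1 (252, Htr2b), Psmc3 (215, Slc39a13), Psma5 (60, 1700010K24Rik) and Psmd3 (17, Gm12356). The part of these neighbours in the counts of the members was not tested. In all, 13 of the 36 members overlap a gene on the other strand and 8 a gene on the same strand.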

How the data were processed

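The deposited table gives expected counts by gene for the 9 libraries; per the submitters' processing notes the authors used RSEM 1.2.28, with STAR 2.6.1, bcl2fastq 2.20, R 3.6.3 and DESeq2 1.26.0 also listed without a stated role. The values are whole and differ in total, so they were used as deposited. The notes list mm10 and GRCh38, and all identifiers are mouse. The labels' protocols describe a strand-specific kit; which annotation release was used and whether counting was by strand is not stated in the sources used here. The 92 spike-in rows held 0 counts and were not used.

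Genes passing filterByExpr (minimum count 10, minimum total 15) were fitted in edgeR 4.0.16 (R 4.3.3) with TMM scaling and a robust quasi-likelihood model over all 9 libraries; p-values were adjusted by Benjamini-Hochberg over 15519 genes per comparison. SE is the fold change over the square root of F. Alternatives used limma 3.58.1, DESeq2 1.42.0, other scalings, no filter, 2 groups only, a replicate block and each library left out; upper quartile scaling and library size without mitochondrial genes were added after seeing the data. The fit was also run on counts simulated from its own means, library sizes and spreads. Genes were changed there at 48 h only, so that run cannot check the scaling at d14, and no result here rests on it. Levels per kb use the longest principal coding transcript of GENCODE M21.

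The members and the 15 gene and 11 marker lists were chosen with earlier results of these data known; some genes of the other lists are not reported here and are left out of their counts. Named with values in every library are the 3 peptidase subunits, the member with the smallest p per class and comparison, the extreme fold changes, Psmb8, Psmb9, Psmb10 and Nfe2l1; other lists give up to 4 called genes.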

Additional observations from a re-analysis of the deposited data

How the results depend on the processing

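With library size alone the members' median turned from negative to 0.24 at d14 against uninjured cells and to 0.25 against 48 h, with counts of 6 higher and 0 lower, and 8 higher and 0 lower; at 48 h 0 were higher and 0 lower. Among the members called lower after TMM scaling, fold changes that turned positive at d14 against uninjured cells were those of Psma1 (0.30), Psma2 (0.18), Psma3 (0.23), Psmb1 (0.23), Psmb3 (0.17), Psmb4 (0.18), Psmb5 (0.16), Psmb6 (0.0487), Psmc1 (0.22), Psmc2 (0.17), Psmc4 (0.0949), Psmc5 (0.0844), Psmc6 (0.18), Psmd2 (0.24), Psmd5 (0.27), Psmd12 (0.0393), and Psmd13 (0.25), as did those of Pomp (0.11) and Ubb (0.16). Among those called lower against 48 h they were those of Psma1 (0.21), Psma2 (0.12), Psma3 (0.0195), Psma6 (0.12), Psmb1 (0.13), Psmb3 (0.22), Psmb4 (0.17), Psmc4 (0.13), Psmc5 (0.17), Psmd12 (0.17), and Psmd13 (0.0580); of other genes, so did those of Psme4 (0.0873), Adrm1 (0.20), Ngly1 (0.0746), Ddi2 (0.11) and Psme2 (0.56), the last from a value near 0 that was not called. With library size without mitochondrial genes, chosen after seeing the data, the median at d14 against uninjured cells turned to 0.12 with 5 higher and 1 lower (43.5% and 10.8% of all genes), 5 were lower against 48 h (9.96% of all genes), and 6 were higher and 0 lower at 48 h. The shift of the typical gene by these scalings is given in the report.

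At 48 h the call of Psmb5 was absent (0 higher) with mitochondrial genes removed, with no filter on low counts, with only the 2 groups compared and with the replicate block, and that of Psmc6 (0 lower) with only the 2 groups and with upper quartile scaling; limma gave 2 lower. The cause was not tested. Leaving out each library in turn gave 0 to 1 higher and 0 to 1 lower at 48 h, 10 to 22 lower at d14 against uninjured cells and 10 to 17 lower against 48 h. Under the other settings the d14 counts stayed within 1.5 times of 21 and 16. The replicate block gave 15 lower in both d14 comparisons and 0 higher at 48 h. Same-numbered libraries did not deviate together, with correlations of -0.13 to 0.02 over 9 pairs. With 3 libraries per group this check is too small to settle whether the numbers pair the samples. Without the shallowest library, with 8036054 counts, 0 members were higher and 1 (Psmd9) lower at 48 h.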
